A study of Mus musculus with 8 samples.

Results

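The cluster of miR-212 and miR-132 was followed in small RNA sequencing of isolated mouse cardiomyocytes, where its 4 mature strands were rare and none of them was called changed after pressure overload. The 4 strands, mmu-miR-212-5p, mmu-miR-212-3p, mmu-miR-132-5p and mmu-miR-132-3p (written without the species prefix from here on), were taken by name from the 697 miRNAs listed in every library, and all 4 had counts in all 8 libraries. Their counts summed to between 234 and 495 per library, 67.9 per 1000000 miRNA counts over the series. Transverse aortic constriction (TAC) narrows the aorta and loads the left ventricle, and it was compared with a sham operation, with 4 libraries in each group. Male mice of 2 months were operated on under ketamine and xylazine, and hearts were examined 14 weeks after surgery, although the study's methods also describe the mice at isolation as 14 weeks old. Strain and genotype are not given in the sources used here. Cardiomyocytes were freed by Langendorff perfusion and the cells of a heart were divided into 4 tubes, 1 of them for miRNA sequencing. The labels number the libraries without naming animals, and the study's methods take each sample from a single heart, so p-values measure the spread between these hearts. In such bulk samples, fewer cells of a type and less RNA per cell cannot be told apart. Library totals ran from 4005668 to 5392576 miRNA counts in sham and from 5507169 to 7798943 in TAC.

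The cluster is known as a pro-hypertrophic regulator. Its transcription responds to CREB, and in cardiomyocytes its 3p strands repress FoxO3, a transcription factor that restrains growth and favours autophagy, and inhibitors of miR-132 have been developed for heart failure. It is best known from neurons, where it is abundant and induced by activity. A hairpin yields a strand from each arm, and the strand loaded into Argonaute recognises messenger RNAs mainly through its seed, bases 2 to 8, so strands with the same seed are expected to share targets.

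The mature sequences are shown, from RefSeq on GRCm38, because the seeds decide which strands can be read together. The 7 seed bases are in capitals.

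miR-212-5p: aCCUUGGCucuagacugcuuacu

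miR-212-3p: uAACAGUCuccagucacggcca

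miR-132-5p: aACCGUGGcuuucgauuguuac

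miR-132-3p: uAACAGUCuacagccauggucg

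The 3p strands of both hairpins carried the same seed, and no other of the 1679 mature mouse miRNAs in the RefSeq table did. They were identical at 17 of 22 bases and differed at A10C, C14U, U17C, U20C and G22A, where positions count from the 5′ end, with the base of miR-132-3p before the position and that of miR-212-3p after it. The seeds of the 5p strands were held by no other mature mouse miRNA in the RefSeq table. On GRCm38, all strands lay on the plus strand of chromosome 11, with miR-212-5p at chr11:75173403-75173425, miR-212-3p at chr11:75173443-75173464, miR-132-5p at chr11:75173686-75173707 and miR-132-3p at chr11:75173723-75173744. The hairpins Mir212 (91 bases) and Mir132 (66 bases) were separated by 203 bases, and both fell in intron 1 of 1700016P03Rik, a processed transcript of the same strand. How the authors' counting treated a tag that matched both 3p strands is not given in the sources used here.

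The most abundant strand was miR-212-5p, the strand opposite to the one that carries the shared seed. Its counts were 224, 206, 230 and 141 in sham 1 to 4 and 275, 245, 188 and 198 in TAC 1 to 4. Per 1000000 miRNA counts (CPM, by library total) this was 42.2 ± 6.46 in sham and 34.6 ± 10.4 in TAC (mean ± SD, n = 4 each). TAC 1 was the highest of all 8 libraries and the other 3 TAC libraries were below every sham library, so the groups overlapped. By library total the groups overlapped for all 4 strands, where 2.93% of the tested miRNAs were higher and 19.5% lower in every TAC library than in any sham library. By mean CPM miR-212-5p ranked 182 among the 697 miRNAs in sham and 186 in TAC.

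Both strands of miR-132 were next and close to each other. For miR-132-5p the counts were 59, 101, 100 and 42 in sham 1 to 4 and 80, 125, 76 and 77 in TAC 1 to 4, or 15.6 ± 4.72 and 13.3 ± 2.42 CPM. For miR-132-3p, the strand usually credited with the cluster's function, they were 89, 106, 80 and 46 in sham and 82, 109, 62 and 62 in TAC, or 16.7 ± 3.76 and 11.8 ± 3.09 CPM. The groups overlapped for both strands, and sham 4 was the lowest sham library for each. The order of the pair did not hold across libraries, with miR-132-5p above miR-132-3p in 4 of 8.

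miR-212-3p, the other strand with the shared seed, was close to the limit of counting. It had 8, 16, 24 and 5 counts in sham 1 to 4 and 9, 16, 16 and 14 in TAC 1 to 4, or 2.71 ± 1.63 and 2.04 ± 0.369 CPM. Sham held both the highest and the lowest library, so the groups overlapped. Counting error alone was 20.4% to 44.7% of a single value in sham, against 6.59% to 8.42% for miR-212-5p, and the coefficient of variation of miR-212-3p between sham libraries (59.997%) exceeded that from counting (27.5%), while that between TAC libraries (18.1%) did not (27.0%). miR-212-5p was the highest and miR-212-3p the lowest of the 4 strands in 8 of 8 libraries.

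**Figure D1:**
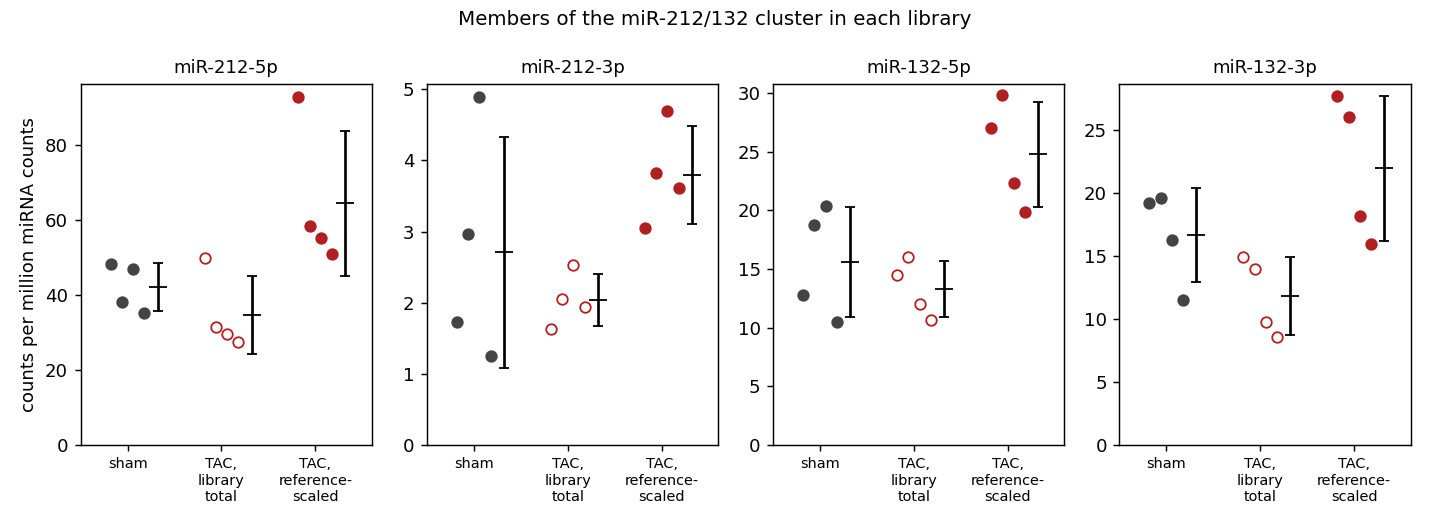
CPM (linear vertical axes from 0) of each strand by library; points are libraries, offset for visibility, and bars are mean ± SD of 4. Sham is filled grey, TAC by library total is open, and TAC scaled to the reference pair miR-19b-3p and miR-126a-3p is filled red. By library total the groups overlap for all 4 strands, and after scaling by 1 factor for the TAC group they separate for miR-212-5p alone.

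The make-up of the cluster differed between sham and TAC by less than its spread between sham libraries. miR-212-5p supplied 55.1% ± 5.66 of the cluster counts in sham and 55.6% ± 5.001 in TAC. miR-132-5p supplied 20.01% ± 3.92 and 21.8% ± 3.002, miR-132-3p 21.6% ± 2.99 and 19.05% ± 2.003, and miR-212-3p 3.38% ± 1.62 and 3.48% ± 1.14. Each of these differences was smaller than the SD of its sham group. Among the counts that carried the shared 3p seed, miR-132-3p supplied 86.4% ± 6.66 in sham and 84.6% ± 4.91 in TAC.

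**Figure D2:**
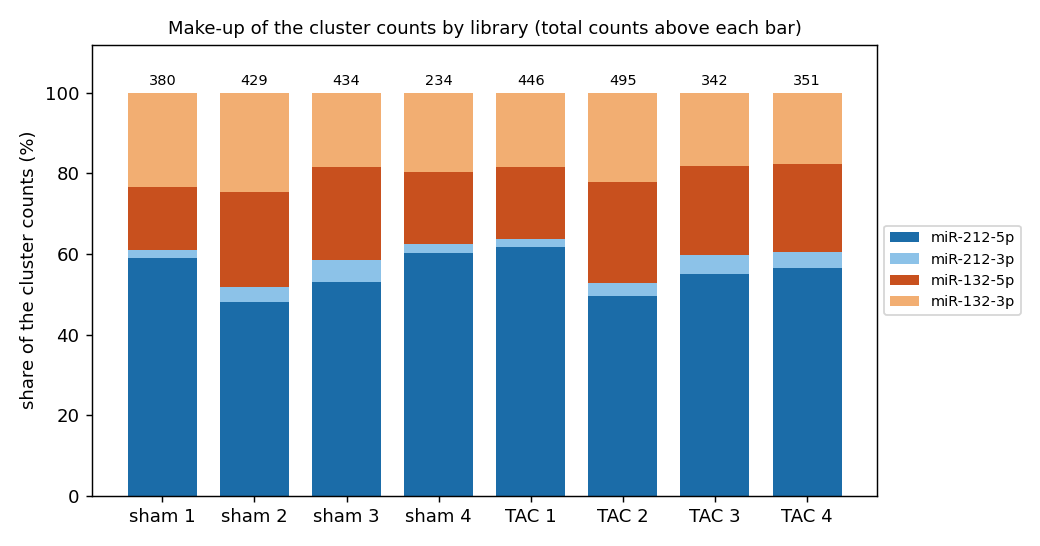
Share of the cluster counts (%) taken by each strand in each library, with the total cluster counts above each bar. miR-212-5p takes the largest share in all 8 libraries, and the shares of sham and TAC overlap for every strand.

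A ratio of 2 strands within a library does not depend on how the libraries were scaled, so it asks directly whether the strands moved by unequal amounts. Among the 6 pairs, with 0.5 count added to each, the differences between groups (TAC minus sham, log2 ratio) lay between -0.12 and 0.31. The widest difference was that of miR-132-5p to miR-132-3p, 0.31 (95% interval -0.36 to 0.90, two-sided exact permutation p = 0.2, Benjamini-Hochberg p = 0.971), with a ratio of 0.922 in sham and 1.14 in TAC (geometric means). That of miR-212-5p to miR-212-3p was -0.061 (95% interval -1.21 to 1.62, exact permutation p = 0.971), with 16.8 counts of the 5p strand per count of the 3p strand in sham and 16.1 in TAC. The remaining 4 pairs had exact permutation p from 0.4 to 0.886, and the groups overlapped in all 6. The smallest p that 4 libraries against 4 can give is 0.0286. The intervals were wide where miR-212-3p took part, and each of those 3 intervals held a change by a factor of 2 in at least 1 direction.

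The arms of both hairpins were then read against the 111 hairpins with at least 10 mean counts on each arm, as a description. In 62 of these the 5p arm was the more abundant and in 49 the 3p arm. The log2 ratio of 3p to 5p averaged -4.04 over the groups for miR-212, rank 29 from the lowest, and -0.037 for miR-132, rank 62. The adjacent hairpins thus differed widely in which arm was counted, miR-212 being mostly 5p and miR-132 evenly split. Between groups the log2 ratio of miR-212 differed by 0.061 and that of miR-132 by -0.31, beside a median absolute difference of 0.284 over all hairpins.

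**Figure D3:**
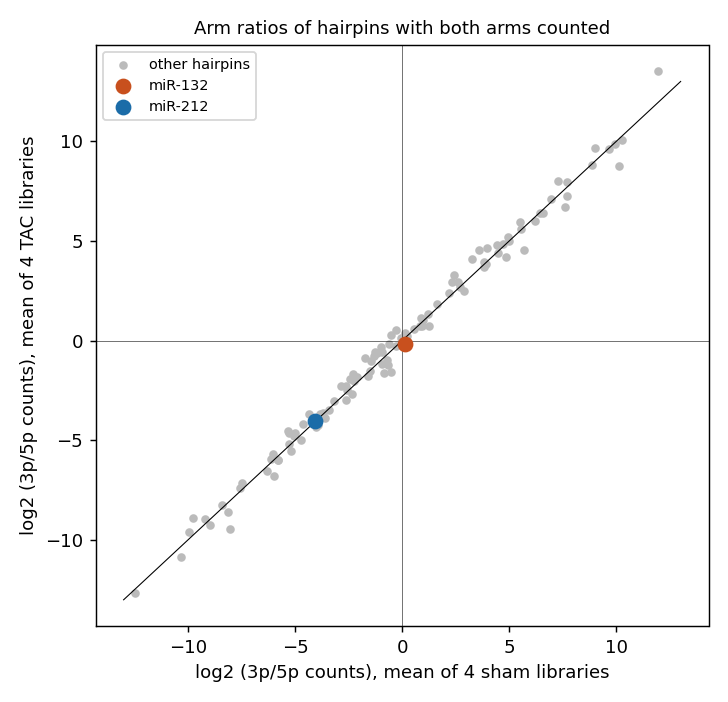
Log2 ratio of 3p to 5p counts in sham (horizontal, mean of 4) and TAC (vertical, mean of 4); each point is a hairpin, 111 in all, and the diagonal marks equal ratios. miR-132 lies beside the origin and miR-212 near -4 on both axes, both close to the diagonal.

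The sign of the cluster's fold changes after TAC depended on the scale. The study normalised to a pair of reference miRNAs, miR-19b-3p and miR-126a-3p. This multiplied TAC library sizes by 0.537 here and moved every log2 fold change up by 0.90 relative to library totals. On that scale the edgeR quasi-likelihood fit, which took the 410 miRNAs averaging 10 counts or more, had a median log2 fold change of 0.59, so changes are given beside it. Of the 4 strands, 0 were called higher when a Benjamini-Hochberg adjusted p below 0.05 had to come with a change of over 1.7-fold, where 29.8% of all tested miRNAs were, and 0 were called lower, where 0.488% were. With no fold change required 0 of 4 were called, beside 42.7% of all tested. With the study's filter of over 100 counts miR-212-5p had an edgeR adjusted p of 0.0391, in a fit of 223 miRNAs with a median log2 fold change of 0.61. The share of those 223 below 0.05 is not given here. In the fit of 410, at an unadjusted p below 0.05, the count was 2 of 4, miR-212-5p and miR-132-5p, beside 51.0% of all tested. Neither had a change of over 1.7-fold. That count was 1 of 4 with a reference factor for each library or with miR-126a-3p alone as reference, and 0 of 4 under TMM or library totals. The share of all tested miRNAs below that p is not given here for those 4 scalings, so these counts cannot be set against it. With miR-19b-3p alone, where 38.0% of all tested were called higher and the median was 0.69, miR-132-5p was called at 0.77. By DESeq2 with the scaling to both references 0 were called, although miR-212-5p had an adjusted p of 0.0383 there, and with its own size factors 0 were called. The median log2 fold change over all tested miRNAs was 0.59 in the first of these DESeq2 fits and -0.035 in the second. The share of all tested miRNAs called in the first is not given here.

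In the fit, both 5p strands lay close to the median of all miRNAs and above it. Over the settings miR-212-5p was below it in 4 of 19 and miR-132-5p in 3 of 18. For miR-212-5p these included the replicate block, which omits no library (-0.016 from the median). On the reference scale miR-212-5p was at 48.4, 38.2, 46.9 and 35.2 in sham and 93.0, 58.5, 55.2 and 51.1 in TAC. All TAC libraries were above all sham libraries, a separation that 39.8% of the tested miRNAs shared (0.244% in the other direction), and TAC 1 stood highest. This rested on a single factor for the group, since with a factor for each library sham 1 was at 63.9, above 61.7, 56.6 and 45.9 in TAC 2, TAC 3 and TAC 4, and the log2 fold change was 0.56 (95% interval -0.067 to 1.19, edgeR adjusted p = 0.147). With the group factor its log2 fold change was 0.61 ± 0.23 (SE; 95% interval 0.10 to 1.12, edgeR adjusted p = 0.0516), 0.019 above the median of all miRNAs. Without TAC 1 it was 0.38, and without sham 1 it was 0.80 and passed both thresholds (edgeR adjusted p = 0.0215), where 39.3% of all tested were called higher and the median was 0.71. That of miR-132-5p was 0.66 ± 0.27 (95% interval 0.073 to 1.25, edgeR adjusted p = 0.0650), 0.073 above the median. For miR-132-5p the libraries were at 12.7, 18.7, 20.4 and 10.5 in sham and 27.1, 29.9, 22.3 and 19.9 in TAC, where sham 3 lay above TAC 4. With a factor for each library its groups did not overlap, but the share of all miRNAs that separate on that scale is not given here. Without TAC 4 its log2 fold change was 0.81 and passed both thresholds (edgeR adjusted p = 0.0335), where 34.2% of all tested were called higher and the median was 0.65. Against library totals both turned negative, at -0.29 and -0.23. Against TMM, where the median of all tested miRNAs was 0.0015, they were 0.010 and 0.083.

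Both 3p strands, which carry the shared seed, lay below that median in the fit, as miR-132-3p did in 18 of 18 settings and miR-212-3p in 17 of 18. The order of miR-212-3p and miR-212-5p depended on the measure. The difference between groups in mean log2 reference-scaled CPM was 0.66 for the 3p and 0.58 for the 5p strand. Without sham 3 the fitted value of miR-212-3p was 0.82. On the reference scale miR-132-3p was at 19.2, 19.7, 16.3 and 11.5 in sham and 27.7, 26.0, 18.2 and 15.99 in TAC. TAC 3 and TAC 4 lay within the sham range, so the groups overlapped. Its log2 fold change was 0.40 ± 0.27 (SE; 95% interval -0.20 to 0.99, edgeR adjusted p = 0.252), which was -0.20 from the median of all miRNAs. miR-212-3p had 0.47 ± 0.43 (95% interval -0.49 to 1.42, edgeR adjusted p = 0.397), or -0.12 from the median, and its groups overlapped. No strand was called against TMM, where calls made up 1.71% of all tested miRNAs in each direction, or against library totals, where 0.244% were higher and 8.78% lower. Both 3p strands were negative against TMM, at -0.20 and -0.094, and against library totals, at -0.50 and -0.42. Among the 410 fold changes the 4 strands stood at percentile 32.2 (miR-132-3p), 39.0 (miR-212-3p), 52.0 (miR-212-5p) and 55.9 (miR-132-5p).

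**Figure D4:**
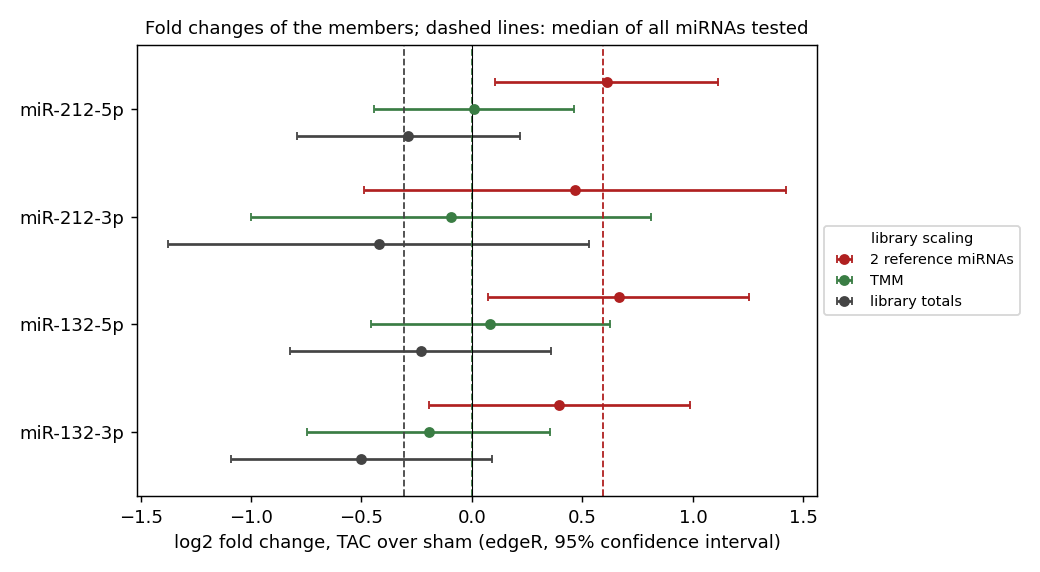
Log2 fold change of TAC over sham (horizontal) of each strand with its 95% interval from edgeR, under 3 library scalings; dashed lines are the medians of the 410 miRNAs under the same scaling, 0.59, 0.0015 and -0.31. Every interval contains the median of its own scaling.

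Summed over its strands, the cluster gave 82.1, 79.6, 88.4 and 58.4 CPM by library total in sham 1 to 4 and 81.0, 63.5, 53.9 and 48.6 in TAC 1 to 4. The groups overlapped, with TAC 1 and TAC 2 inside the sham range. The log2 difference was -0.33 by library total and 0.57 after reference scaling, where TAC averaged 115 ± 26.5 against 77.1 ± 13.02 in sham and the groups did not overlap, as for 39.8% of single miRNAs on that scale. With a factor for each library they overlapped.

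The reference scale rests in part on an endothelial miRNA. The study describes both references as unaltered and as verified by QPCR, for which its methods name snoRNA controls. By library total the endothelial markers miR-126a-3p and miR-126a-5p summed to 60050 ± 10602 CPM in sham and 32856 ± 2415 in TAC. Every TAC library was below every sham library, as for 19.5% of single tested miRNAs on that scale. Reference scaling brings the sum of both markers to a log2 difference of 0.041. miR-126a-3p, one of the 2 references, is the more abundant marker, so that value is largely set by the scaling itself. miR-143-3p led the smooth muscle and pericyte list, which summed to 41175 ± 2915 CPM in sham and 37848 ± 1741 in TAC, and miR-150-5p the leukocyte list, with 1920 ± 480 and 1226 ± 173. The cluster is also made in these cells, and their part in its values was not tested. miR-144-3p led the erythroid list, with 962 ± 444 CPM in sham and 330 ± 249 in TAC. Cardiomyocyte markers, led by miR-1a-3p, summed to 177299 ± 16433 CPM in sham and 222021 ± 21213 in TAC, so the labelled cell type was present. Of 9 neuronal markers 8 were listed, and the sum of 1453 ± 286 CPM in sham and 1677 ± 273 in TAC was almost wholly miR-128-3p. The defining neuronal miR-124-3p had 3 to 11 counts per library. No listed marker was at 0 in all libraries.

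The fold changes of other hypertrophy-linked miRNAs spanned a wider range than those of the cluster. Of 12 reported to promote hypertrophy, 6 were called higher and 0 lower (29.8% and 0.488% of all tested), with a median log2 fold change of 0.77 beside 0.59 over all miRNAs (0.18 beside 0.0015 under TMM). The called ones were miR-208b-3p, encoded within the slow myosin gene Myh7 (1.71 ± 0.36, SE), miR-27b-3p (1.26 ± 0.13), miR-221-3p (1.12 ± 0.21), miR-22-3p (1.06 ± 0.14), miR-155-5p (1.06 ± 0.15) and miR-499-5p, encoded within the myosin gene Myh7b (0.93 ± 0.14). The lowest of this list was miR-23a-3p, at 0.50. miR-208b-3p, the highest by fold change, had 169, 384, 154 and 104 counts in sham 1 to 4 and 431, 309, 426 and 760 in TAC 1 to 4, or 41.3 ± 20.4 and 72.6 ± 27.2 CPM. By library total TAC 2 and TAC 3 lay below sham 2, so the groups overlapped. Under TMM 0 of the 12 were called (1.71% of all tested in each direction).

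On the reference scale, 12 miRNAs reported to restrain hypertrophy had a median of 0.73 (0.14 under TMM). Of these, 6 were again called higher and 0 lower, where 29.8% and 0.488% of all tested were. Calls lower were rare among all miRNAs on this scale, so their absence here is no trait of this list. Those called higher were miR-1a-3p (1.44 ± 0.15), which is the most abundant muscle miRNA here, miR-98-5p of the let-7 family (1.23 ± 0.18), miR-133b-3p (1.17 ± 0.14), miR-26b-5p (0.83 ± 0.17), miR-133a-3p (0.79 ± 0.18) and miR-378a-3p (0.79 ± 0.15). The lowest was miR-30a-5p at -0.023. Under TMM 1 of the 12 was called, miR-1a-3p, which was higher (1.71% of all tested). Against library totals 0 of the 12 were called higher and 3 lower, where 0.244% and 8.78% of all tested were, namely miR-30a-5p (-0.92 ± 0.14), miR-101a-3p (-0.89 ± 0.12) and miR-9-5p (-0.84 ± 0.24), the last pair named after their values were seen. On that scale 6 of the 12 pro-hypertrophic and 9 of the 12 anti-hypertrophic miRNAs had negative fold changes, miR-23a-3p, miR-133a-3p, miR-26b-5p and miR-378a-3p among them. Most miRNAs were negative there, with a median log2 fold change of -0.31 and an upper quartile of 0.042 over all tested. All 4 strands of the cluster lay below the median of either list.

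**Figure D5:**
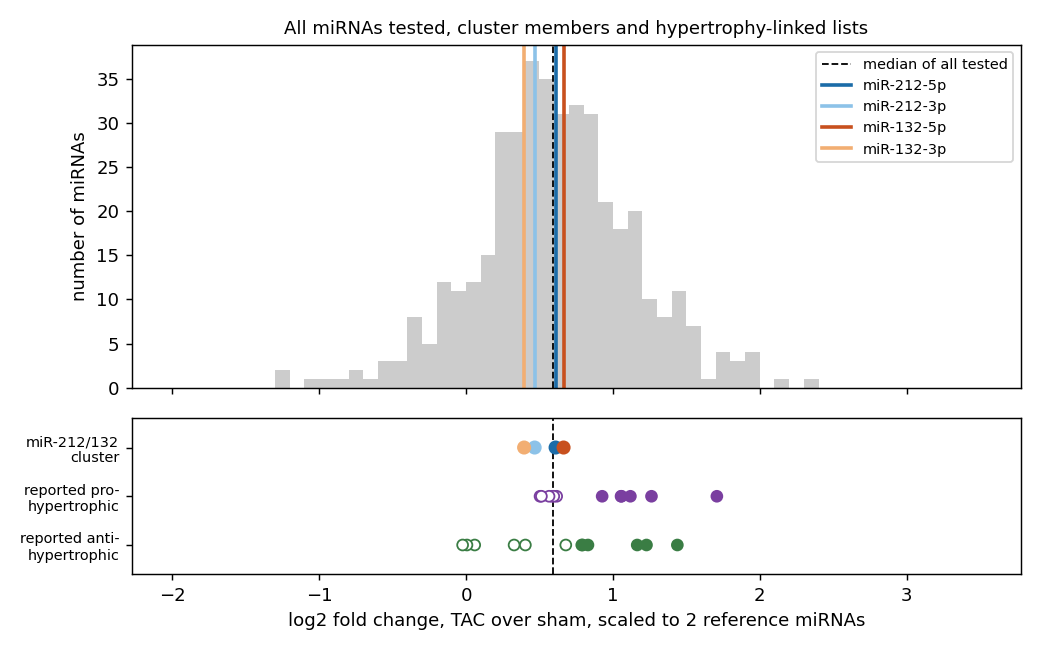
Above, the number of miRNAs by log2 fold change of TAC over sham (reference scaling, 410 miRNAs), with the 4 strands as coloured lines and the median of 0.59 dashed; below, the strands and both hypertrophy-linked lists of 12, filled where called for the lists. The strands lie between 0.40 and 0.66, near the peak of the distribution.

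Mir22 was the nearest other hairpin of the annotation with counted strands, 289969 bases away at chr11:75463716-75463810. It is described as a cardiac miRNA needed for hypertrophic growth. miR-22-3p had 228627, 363215, 351674 and 278226 counts in sham 1 to 4 and 430587, 605857, 443026 and 451234 in TAC 1 to 4, with every TAC count above every sham count in libraries that were also deeper, or 64470 ± 10201 and 72054 ± 7437 CPM. It was called higher on the reference scale (1.06 ± 0.14, edgeR adjusted p = 2.12e-04), as was miR-22-5p (1.11 ± 0.20, edgeR adjusted p = 0.00173). On that scale 29.8% of all tested miRNAs were called higher. Under TMM miR-22-3p was at 0.46 (edgeR adjusted p = 0.0722) and was not called, where 1.71% of all tested were called higher. The cluster had 1230 ± 337 counts per 1000000 of miR-22-3p in sham and 851 ± 125 in TAC. The log2 difference of this ratio, which needs no scaling, was -0.50 (TAC minus sham, 95% interval -1.11 to 0.30), and the groups overlapped. Across the 8 libraries miR-22-3p ranked 176 of 222 miRNAs in its correlation with the cluster (r = -0.060) and miR-22-5p ranked 161 (r = 0.087).

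The miRNAs whose log2 CPM most resembled that of the summed cluster over the 8 libraries were miR-210-3p, the miRNA induced by hypoxia (r = 0.880), miR-143-5p of smooth muscle (0.869), miR-351-5p (0.865), let-7i-5p (0.859) and miR-335-3p (0.826), among 222 miRNAs averaging 100 counts or more. These coefficients are descriptions over libraries that share depth and group. The choice was not stable, since 0 of the 5 remained by Spearman's correlation and 1 of 5 after reference scaling. miR-210-3p, at 51.3 ± 11.1 CPM in sham and 39.9 ± 12.6 in TAC, was near miR-212-5p in level and in fold change (0.53 ± 0.25, edgeR adjusted p = 0.104). Between the strands themselves the correlations over 8 libraries ran from 0.160, for both strands of miR-212, to 0.777, for miR-212-5p with miR-132-3p. They were 0.775 for miR-212-3p with miR-132-5p and 0.704 for both strands of miR-132, so strands of the same hairpin were not the most alike. With group means removed, miR-212-3p with miR-132-5p was highest, at 0.758. Both strands of miR-132 (0.696) then stood just above miR-212-5p with miR-132-3p (0.689), and differences between these coefficients were not tested.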

How the data were processed

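The authors deposited raw counts per mature miRNA for each of the 8 libraries. The submitters' notes name mm10 and StringTie 1.3.1; the aligner, the miRNA annotation and the treatment of ambiguous tags are not given in the sources used here. The members and lists were chosen with earlier results of these data known. Counts were tested with edgeR 4.0.16 (quasi-likelihood, R 4.3.3), with library sizes from miRNA totals and, in TAC, the factor from miR-126a-3p and miR-19b-3p, over miRNAs averaging 10 counts or more, with Benjamini-Hochberg adjustment over 410 miRNAs; the study's filter was 100 and its methods do not state an adjustment of p. The fit was tested on simulated data. TMM, library totals, single references, DESeq2 1.42.0, other filters and omission of each library were alternatives. Ratios used 0.5 count as pseudocount and exact permutation over 70 arrangements, and their intervals hold the shifts that this test does not reject; 1 was added to CPM for correlations. No p is given for sums over members or markers. Named miRNAs were the 4 members, the references, the 5 most correlated, list members called or extreme, each list's leading marker, and neighbours within 1 Mb with at least 100 counts; the test against miR-22-3p was added after seeing the data. RefSeq names matched 593 of 697 miRNAs. The numbers of libraries were not taken as pairs. The closest pair of libraries differed by a chi-square of 122 per degree of freedom, so none was a copy. Counting errors cover counting only.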

Additional observations from a re-analysis of the deposited data

Results flagged for a closer look

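In 34 tests of whether a group's extreme library stood apart (Dixon's ratio, the gap to the nearest library over the range), 2 exceeded the 95% critical value for 4 libraries, and chance flags about 1 in 20. The summed neuronal markers were lowest in sham 1, at 1026 CPM beside 1556 to 1643 in the other sham libraries (ratio 0.859). The summed endothelial markers were lowest in TAC 4, at 29274 CPM beside 33782 to 34557 in the other TAC libraries (ratio 0.853). These are the libraries without which miR-212-5p (sham 1) and miR-132-5p (TAC 4) passed both thresholds, and the part of the markers in those values was not tested. The strands themselves and their ratios were not past the critical value in either group.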

How the results depend on the processing

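Scaling decided the sign of the strands. Against library totals the log2 fold changes of miR-212-5p, miR-212-3p, miR-132-5p and miR-132-3p were -0.29, -0.42, -0.23 and -0.50, against TMM those of miR-212-3p and miR-132-3p were -0.094 and -0.20, and by DESeq2 with its own size factors miR-212-5p, miR-212-3p and miR-132-3p were at -0.028, -0.13 and -0.23. The cluster sum was -0.33 by library totals and -0.028 by TMM. With miR-19b-3p alone as reference miR-132-5p was called, at 0.77 (edgeR adjusted p = 0.0332), so 1 of the 4 strands was, beside 38.0% of all miRNAs. Calls over all miRNAs were 122 higher and 2 lower, but 7 and 7 by TMM, 1 and 36 by library totals and 9 and 13 by DESeq2's own size factors; 76 were higher at a fold change above 2, and 1 was lower with a factor per library or with miR-19b-3p alone. Pro-hypertrophic calls, 6 at first, were 0 by TMM and library totals and 1 by DESeq2's own size factors. They were 10 with no fold change required, where 42.7% of all tested miRNAs were higher. Anti-hypertrophic calls, also 6, and all higher, were 1 higher by TMM, 0 higher and 3 lower by library totals, 3 higher with miR-126a-3p alone, 1 higher by DESeq2's own size factors and 3 higher at a fold change above 2. The share of all tested miRNAs called with miR-126a-3p alone is not given here. These list counts and the marker sums were repeated as alternatives chosen after seeing the data.

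By library totals other named miRNAs turned negative: miR-23a-3p (-0.39), miR-133a-3p (-0.10), miR-26b-5p (-0.067), miR-378a-3p (-0.11), miR-210-3p (-0.36), miR-143-5p (-0.16), miR-351-5p (-0.79), let-7i-5p (-0.13), miR-335-3p (-0.47) and miR-126a-3p (-0.80). By TMM miR-23a-3p (-0.084), miR-210-3p (-0.061), miR-351-5p (-0.49), miR-335-3p (-0.17) and miR-126a-3p (-0.49) did, and by DESeq2's own size factors the same 5 at -0.12, -0.10, -0.52, -0.20 and -0.52. With miR-19b-3p alone miR-30a-5p was 0.079, and with miR-126a-3p alone that miRNA was at -3.02e-06 by construction. Reference scaling moved the endothelial sum to 0.041.

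Leaving out each library in turn gave log2 fold changes of 0.38 to 0.80 for miR-212-5p, 0.28 to 0.82 for miR-212-3p, 0.53 to 0.81 for miR-132-5p and 0.27 to 0.59 for miR-132-3p, with 0 to 1 strand called. Calls over all miRNAs were 85 to 160 higher and 1 to 4 lower. miR-30a-5p ran from -0.16 to 0.12 and miR-351-5p from -0.039 to 0.29. The ratio of miR-212-5p to miR-212-3p ran from -0.34 to 0.16, to miR-132-5p from -0.27 to 0.031, and of miR-212-3p to miR-132-5p from -0.21 to 0.13, and a pseudocount of 5 took the first of these to 0.040. Of the 5 most similar miRNAs 1 to 5 remained, 1 after reference scaling, 0 by Spearman's correlation and 3 with a minimum of 10 counts. With a minimum of 100 counts an arm ratio could not be had for either hairpin. A replicate block gave 0 strands called, 114 miRNAs higher and 3 lower; of the named miRNAs let-7i-5p alone lost its call (0.76). The study's methods speak of pairs of mice without saying that library numbers mark them; deviations of same-numbered libraries correlated between -0.370 and 0.315, over 0.1 in 2 of 4, so whether the numbers pair the mice is not known. miR-212-3p, with 5 to 24 counts, had the widest interval of the 4 strands.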
